A study of Arabidopsis thaliana with 6 samples.

Results

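The ATG8 genes of Arabidopsis thaliana were followed in rosettes of the catalase mutant cat2-2. They were taken as all probe sets of the Affymetrix ATH1 array that name exactly 1 gene whose symbol begins with ATG8 (or ATATG8), with the brightest probe set standing for a gene. This gave 7 genes (ATG8B, ATG8C, ATG8D, ATG8E, ATG8F, ATG8G and ATG8H) of 13356 measured genes, each with 1 probe set. The family has 9 loci in the fixed list, and the other two were also on the array under older symbols: ATG8A (AT4G21980) is listed as APG8A, and ATG8I (AT3G15580) is listed as APG8H, a symbol easily taken for ATG8H (AT3G06420). Their values are given beside the 7, and the counts say which set they refer to.

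The arrays came from 3 treated and 3 untreated biological replicates, each a pool of at least 15 rosettes, and each replicate was 1 array. Treated plants were cat2-2 in the Col-0 background, 22 days old, sampled 24 h after the tape around their plates was exchanged for parafilm and the plates were put under continuous light, labelled as photorespiratory conditions. Untreated plants were cat2-2 in Col-0, 21 days old, sampled at 0 h from a regime of 16 h of light per day. Both groups carry the catalase mutation and grew on medium with 1% sucrose, and wild-type plants were not analysed here. Restricted gas exchange, continuous light and 24 h of added age differ together between the groups and cannot be told apart. The labelled times of 0 h and 24 h fall at the same hour of the day if both count from the start of treatment. The values are levels on a log2 scale made by RMA, a method that corrects background, equalises the arrays and summarises the probes of a set, and the 6 array medians lay between 6.22 and 6.27.

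Autophagy is the route by which a cell encloses parts of its own cytoplasm in a double membrane and delivers them to the vacuole for breakdown. ATG8 is a small ubiquitin-like protein that is attached to a lipid of the growing membrane, where it helps the membrane expand and captures receptors that carry cargo. Before that, the protease ATG4 trims the tail of most ATG8 proteins to expose a glycine, while Arabidopsis ATG8H and ATG8I are made with that glycine already at the end. In Arabidopsis leaves autophagy is known for recycling during carbon and nitrogen starvation and for clearing damaged peroxisomes and pieces of chloroplasts.

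After 24 h of treatment, transcripts of 3 of the 7 ATG8 genes were higher, those of ATG8H 3.61-fold, of ATG8B 2.84-fold and of ATG8E 1.86-fold. ATG8C was lower by 1.27-fold, and ATG8D, ATG8F and ATG8G did not pass the test. Of the 2 family members under older symbols, ATG8A was lower by 1.28-fold and ATG8I did not pass. All differences are treated minus untreated with n = 3 arrays per group, tested with limma and adjusted by the Benjamini-Hochberg method over 22746 probe sets, with a call at an adjusted p under 0.05. Of all probe sets, 41.7% were called, 19.4% higher and 22.2% lower. Of the 13356 genes taken with 1 probe set each, 37.7% were called. The 7 genes had a median log2 difference of 0.20 and the 9 of 0.07, against -0.0065 over all probe sets, and members were called in both directions. On arrays of whole rosettes, more transcript per cell and more cells of a type that expresses a gene cannot be told apart.

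**Figure D1:**
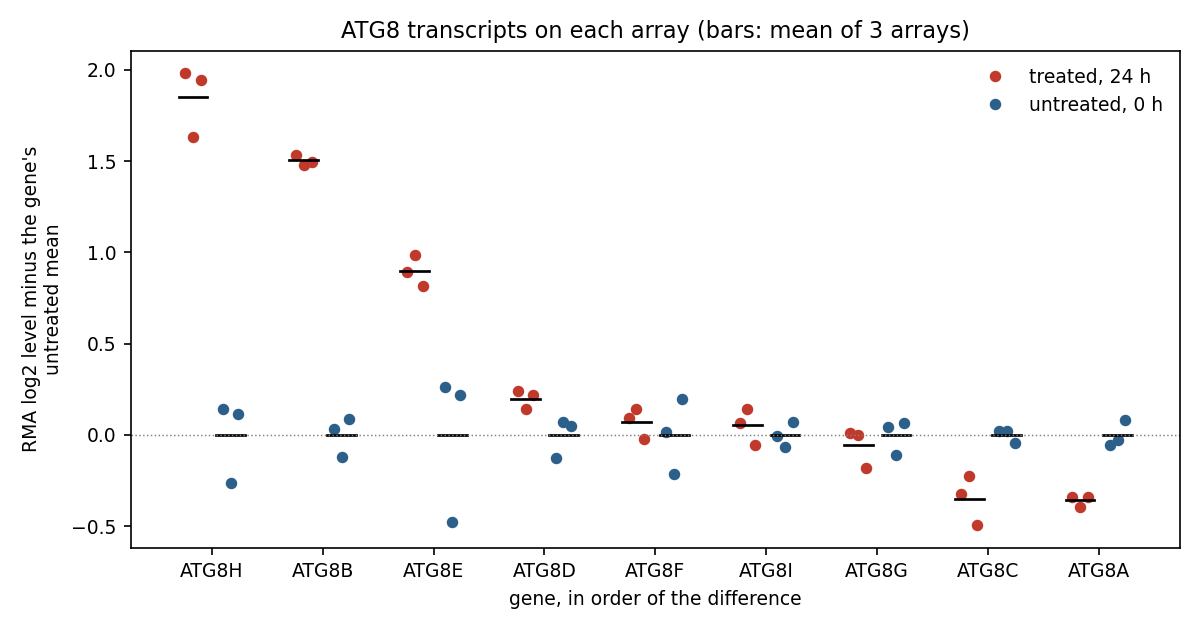
RMA log2 level on each array minus the gene's mean over the 3 untreated arrays (y axis) for the 9 ATG8 genes (x axis), with treated arrays in red on the left and untreated arrays in blue on the right of each gene; black bars are means of 3 arrays. The treated points of ATG8H, ATG8B and ATG8E lie above all untreated points of the same gene, those of ATG8C and ATG8A lie below, and those of ATG8F, ATG8I and ATG8G mix with them.

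ATG8H, whose protein needs no trimming by ATG4, stood at log2 levels of 8.39, 8.04 and 8.35 on the treated arrays, against 6.55, 6.15 and 6.52 on the untreated arrays. The groups were far apart, with a gap several times the spread within either group. The means were 8.26 ± 0.19 in treated and 6.41 ± 0.23 in untreated rosettes (SD, n = 3 each). The difference was 1.85 ± 0.13 on the log2 scale (SE; limma, adjusted p = 4.35e-07). An increase larger than that of ATG8H was measured for 307 of 22746 probe sets, which is 1.35% of them.

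ATG8B, one of the members that ATG4 trims, had log2 levels of 8.39, 8.34 and 8.36 on the treated arrays, against 6.89, 6.74 and 6.95 on the untreated arrays. Its treated arrays were the most alike of any family member, with an SD of 0.029. The means were 8.36 in treated and 6.86 in untreated rosettes, a log2 difference of 1.50 ± 0.08 (SE; limma, adjusted p = 8.01e-08). A larger increase was measured for 2.19% of probe sets. ATG8H and ATG8B were the 2 family members that rose at least 2-fold, a size reached with a call by 4.33% of all probe sets.

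ATG8E, also a member with a tail for ATG4, had log2 levels of 9.28, 9.37 and 9.20 on the treated arrays, against 8.65, 7.91 and 8.60 on the untreated arrays. The groups did not overlap, but untreated replicate 2 lay far below the other 2 untreated arrays, which gave the widest spread in the family (SD 0.42). The difference was 0.90 ± 0.16 on the log2 scale (SE; limma, adjusted p = 0.000919), and 0.66 (adjusted p = 0.000155) without untreated replicate 2. Under an ordinary linear model, which does not borrow the variance of other probe sets, ATG8E did not pass (adjusted p = 0.061).

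A low value on untreated replicate 2 was seen in other family members too, but the drop in ATG8E was the largest. That array was the lowest of the 3 untreated arrays for 6 of the 9 family members, and among all probe sets it was the lowest for 32.6%. Its median deviation from the middle untreated array over the 9 genes was -0.15 on the log2 scale. Without that array the differences of ATG8H and ATG8B were smaller by less than the spread of ATG8H between untreated arrays (log2 1.72 and 1.44), and both kept their call.

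ATG8D had log2 levels of 7.25, 7.15 and 7.23 on the treated arrays, against 6.88, 7.08 and 7.06 on the untreated arrays. All treated arrays lay above all untreated ones, as they did for 24.0% of all probe sets, but the small difference of 0.20 ± 0.08 did not pass (limma, adjusted p = 0.0752). Among the 7 genes, the treated arrays lay wholly above the untreated ones for 4 and wholly below for 1, and the groups overlapped for 2. Of all probe sets, 50.8% had groups that did not overlap in either direction.

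ATG8F had log2 levels of 11.10, 11.15 and 10.99 on the treated arrays, against 11.02, 10.79 and 11.20 on the untreated arrays. ATG8G had 7.017, 7.005 and 6.824 on the treated arrays, against 7.048, 6.896 and 7.073 on the untreated arrays. ATG8I, the other member made with an exposed glycine, had 10.29, 10.37 and 10.17 on the treated arrays, against 10.21, 10.16 and 10.29 on the untreated arrays. For these 3 genes the groups overlapped, and none passed (limma, adjusted p = 0.657 for ATG8F, 0.667 for ATG8G and 0.677 for ATG8I). The 95% intervals of the log2 difference ran from -0.16 to 0.30 for ATG8F, from -0.25 to 0.13 for ATG8G and from -0.13 to 0.23 for ATG8I. These intervals lie below the interval of ATG8E (0.54 to 1.26), so an increase of that size lies outside the range the arrays allow for the 3 genes, though a small one does not. ATG8H rose and ATG8I did not pass, so the 2 members made with the final glycine exposed had different values, and their intervals (1.58 to 2.13 for ATG8H) did not overlap.

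ATG8C had log2 levels of 8.60, 8.70 and 8.43 on the treated arrays, against 8.95, 8.95 and 8.88 on the untreated arrays. ATG8A had 8.09, 8.03 and 8.09 on the treated arrays, against 8.38, 8.40 and 8.51 on the untreated arrays. In both genes every treated array lay below every untreated one, which was so for 26.7% of all probe sets. The log2 differences were -0.35 ± 0.09 for ATG8C (SE; limma, adjusted p = 0.00632) and -0.36 ± 0.08 for ATG8A (adjusted p = 0.0025). Both calls were lost in 2 of 5 other ways of scaling the arrays. With the arrays anchored on the hybridization control transcripts the differences were -0.24 (adjusted p = 0.152) for ATG8C and -0.25 (adjusted p = 0.137) for ATG8A, and with the brighter poly(A) spikes -0.20 (adjusted p = 0.103) and -0.21 (adjusted p = 0.0619). These 2 anchors moved every difference up by 0.11 and 0.15. Both calls were kept with equal medians, with repeated quantile normalization (log2 -0.40 for ATG8C and -0.39 for ATG8A) and with all 24 poly(A) spike sets, where the differences were -0.28 (adjusted p = 0.032) for ATG8C and -0.29 (adjusted p = 0.0181) for ATG8A.

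**Figure D2:**
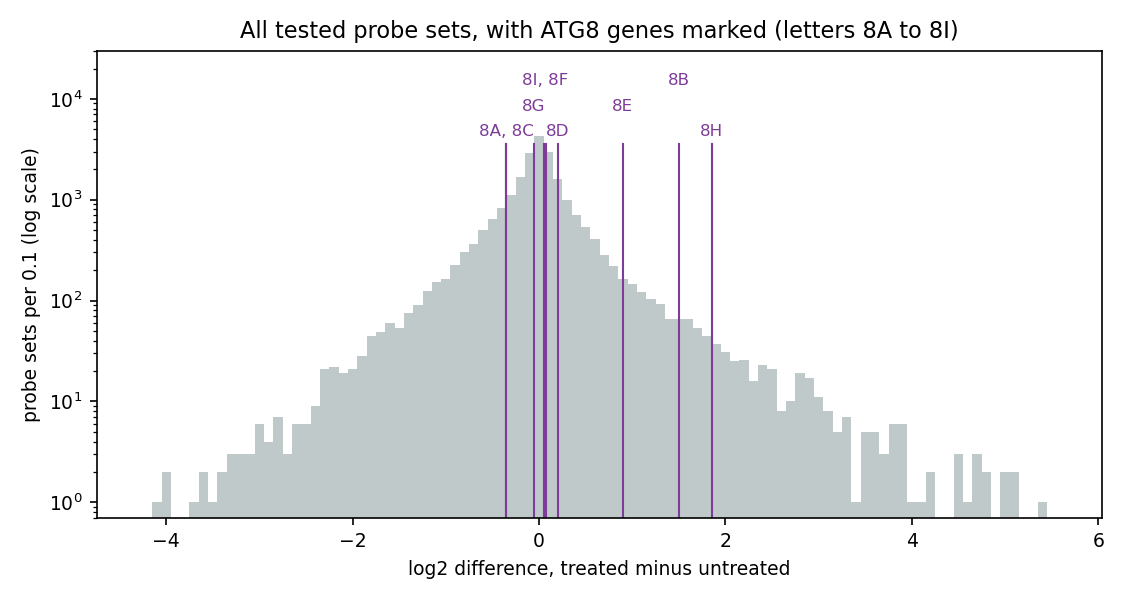
Number of probe sets (y axis, log scale) by log2 difference, treated minus untreated, in steps of 0.1 (x axis) for 22746 probe sets; purple lines mark the 9 ATG8 genes, with 8A to 8I for ATG8A to ATG8I. ATG8H at 1.85, ATG8B at 1.50 and ATG8E at 0.90 lie in the upper tail, and the other 6 lie between -0.36 and 0.20, within the central peak.

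Whether the probe sets of the 2 strongest members rose by the same amount was asked from the difference between their levels within each array. Whether 2 probe sets respond alike to an equal change in transcript was not tested. ATG8H minus ATG8B was -0.0053, -0.30 and -0.0050 on the treated arrays, against -0.34, -0.59 and -0.42 on the untreated arrays. All 3 treated values lay above all 3 untreated ones, with a shift of 0.35 on the log2 scale towards ATG8H. The exact two-sided permutation test gave p = 0.10, the smallest p that 3 against 3 arrays allow. Fitted with limma beside all other probe sets, the difference was 0.35 ± 0.10 (SE; 95% interval 0.12 to 0.57; adjusted p = 0.0172). The 2 genes were ranked by these same arrays, so the direction was set beforehand and neither p value is an independent test of it.

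In order of the difference the family ran ATG8H, ATG8B, ATG8E, ATG8D, ATG8F, ATG8I, ATG8G, ATG8C and ATG8A. For each neighbouring pair the level of one minus that of the next was again taken within each array. These values separated the groups between ATG8H and ATG8B, between ATG8B and ATG8E (0.61 on the log2 scale) and between ATG8E and ATG8D (0.70). They also did between ATG8I and ATG8G (0.11) and between ATG8G and ATG8C (0.29). They overlapped between ATG8D and ATG8F, between ATG8F and ATG8I, and between ATG8C and ATG8A, so the order within those pairs is not fixed by these arrays. The pairs were picked by their order in these same arrays, so a separation describes that order and does not test it. Neither ATG8I nor ATG8G was called.

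For each family member the genes with the most similar course over the 6 arrays were sought among 1048 genes with a symbol in the upper 60% of mean levels. Likeness was the root mean square difference between log2 levels centred on each gene's own mean. For ATG8H these were BGLU28, a beta-glucosidase gene, at 0.11, the RING-finger gene ATL8 at 0.12 and TBL37 at 0.14. For ATG8B they were SDRB, a gene of the short-chain dehydrogenase family, at 0.066, ETFQO, a mitochondrial enzyme that passes electrons from amino acid breakdown to ubiquinone, at 0.099, and the endosomal sorting gene VPS60.1 at 0.13. For ATG8E they were LPR2 at 0.083, AKINBETA1, a beta subunit of the energy-sensing kinase SnRK1, at 0.13 and the immune receptor gene EFR at 0.13. No gene was shared between these 3 sets.

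The nearest genes of the members that fell were ATSYTF, USP and LIL3:1 for ATG8A, at 0.035 to 0.049, and NdhN, UGT76C1 and rps3 for ATG8C, at 0.034 to 0.048. ATG8D lay nearest to KIWI, NUP155 and FMA, ATG8F to AQI, COAD and FIO1, ATG8G to DER2.2, PGRL1B and CP5, and ATG8I to OSB1, CP5 and PRK. All of these lay within 0.058. With so few arrays in 2 groups, likeness mostly says that 2 genes differ by a similar amount between the groups.

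The genes that act before and around ATG8 were taken from lists of 46 entries in 6 groups, of which 13 genes were measured with a probe set naming them alone. Of the 13, 4 rose, 4 fell and 5 did not pass, with a median log2 difference of -0.03. The share called, 61.5%, compares with 37.7% of all genes taken with 1 probe set each and 41.7% of all probe sets. None of the 13 moved as far as ATG8E. The groups for membrane supply (ATG2, ATG9 and ATG18 genes) and for ATG8-binding cargo receptors such as NBR1 had no member measured under this rule. Measured entries were 6 of 8 for the ATG1 complex and 3 of 9 for the conjugation of ATG8 to its lipid. They were 2 of 6 for lipid kinase complexes and 2 of 6 for the upstream kinases TOR and SnRK1. Why the remaining entries were not measured was not broken down.

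Of 6 measured genes of the ATG1 kinase complex, which starts autophagy, 2 rose and 2 fell. ATG1B (AT3G53930), a gene of the kinase itself, had log2 levels of 6.60, 6.44 and 6.51 on the treated arrays, against 5.57, 5.69 and 6.16 on the untreated arrays. It rose by 0.71 ± 0.13 on the log2 scale (SE; limma, adjusted p = 0.00115), the largest change among the 13, but not under an ordinary linear model (adjusted p = 0.0573). The truncated kinase gene ATG1T (AT1G49180) rose by 0.27 (adjusted p = 0.0268), a call lost when treated replicate 1 or 2 or untreated replicate 2 was left out (log2 0.29, 0.22 and 0.21).

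Another gene of the kinase, ATG1C (AT2G37840), had 7.11, 7.10 and 7.10 on the treated arrays, against 7.57, 7.48 and 7.47 on the untreated arrays. It fell by 0.40 ± 0.07 on the log2 scale (limma, adjusted p = 0.000926). A second, dimmer probe set of ATG1C stood at 0.04 (adjusted p = 0.781), and the mean of both sets did not pass (log2 -0.18; adjusted p = 0.0886). With arrays anchored on the hybridization controls it did not pass either (log2 -0.30; adjusted p = 0.0728). ATG1A (AT3G61960) fell by 0.20 (adjusted p = 0.0425), a call lost when any of the 6 arrays was left out (log2 -0.22 to -0.18) and in each of the 3 settings anchored on control transcripts. The regulatory subunit genes ATG13B (log2 -0.23; adjusted p = 0.181) and ATG101 (log2 0.14; adjusted p = 0.449) did not pass. Members of the ATG1 family were thus called in both directions, as the ATG8 genes were.

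The only other gene whose symbol is ATG and a number was ATG3 (AT5G61500), the enzyme that transfers ATG8 to its lipid. It had log2 levels of 8.35, 8.16 and 8.21 on the treated arrays, against 8.61, 8.44 and 8.43 on the untreated arrays. ATG3 fell by 0.25 ± 0.09 on the log2 scale (SE; limma, adjusted p = 0.0343), while ATG8H, ATG8B and ATG8E rose. That call was lost without treated replicate 2 or 3 (log2 -0.22 and -0.24) or untreated replicate 1 (log2 -0.19), and in each of the 3 settings anchored on control transcripts. The protease gene ATG4B (log2 0.12; adjusted p = 0.317) and ATG16 (log2 -0.03; adjusted p = 0.822), whose protein helps direct ATG8 to the membrane, did not pass.

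Among the genes listed for lipid kinase complexes that mark membranes, ATG14A (AT1G77890) rose by 0.44 ± 0.14 on the log2 scale (limma, adjusted p = 0.0283). VPS38 of the same list stood at -0.04 (adjusted p = 0.756). These genes are not taken here as parts of the same complex. The ATG14A arrays were uneven, at 6.709, 5.998 and 6.325 in treated and 5.966, 5.880 and 5.859 in untreated rosettes. Without treated replicate 1 its difference was 0.26 and did not pass (adjusted p = 0.0972), and the call was also lost without treated replicate 3 (log2 0.45) or untreated replicate 2 or 3 (log2 0.43 and 0.42). A second, dimmer probe set of ATG14A stood at 0.15 with overlapping groups (adjusted p = 0.453), and the mean of both sets differed by 0.30 (adjusted p = 0.0477).

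Upstream of the ATG1 complex, the kinase TOR holds autophagy back and works with RAPTOR proteins. The 2 RAPTOR genes moved in opposite directions. RAPTOR1A (AT5G01770, listed as RAPTOR2) had log2 levels of 5.69, 5.60 and 5.71 on the treated arrays, against 6.36, 6.26 and 6.22 on the untreated arrays, and fell by 0.61 ± 0.08 (limma, adjusted p = 6.28e-05). RAPTOR1B (AT3G08850, listed as RAPTOR1) rose by 0.32 ± 0.10 (adjusted p = 0.0216), a call lost without treated replicate 1 or 3 (log2 0.31 and 0.32) or untreated replicate 2 (log2 0.21).

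**Figure D3:**
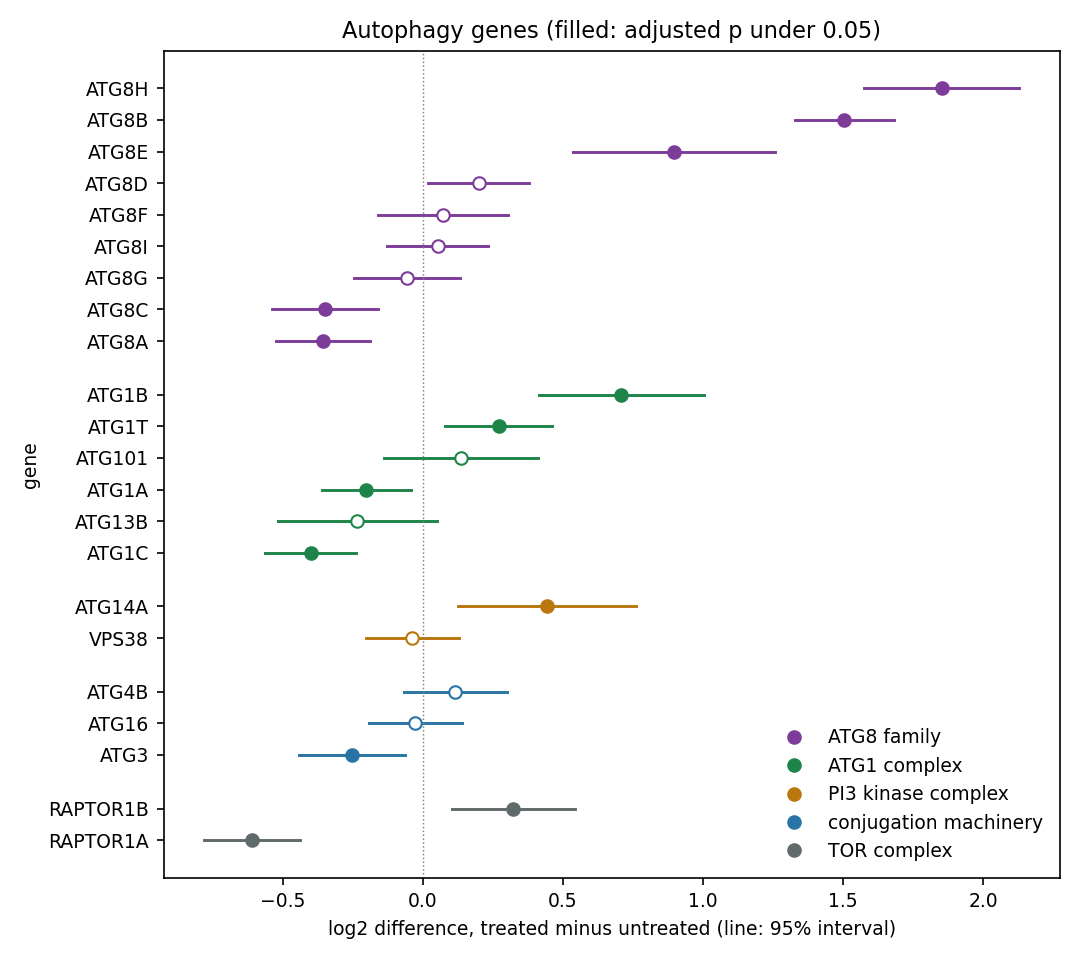
Log2 difference, treated minus untreated (x axis), of the 9 ATG8 genes and 13 other autophagy genes (y axis), grouped by role and coloured by group; lines are 95% intervals from limma and filled points have an adjusted p under 0.05. ATG8H at 1.85, ATG8B at 1.50 and ATG8E at 0.90 lie to the right of the other genes, whose largest increase is ATG1B at 0.71.

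The ATG8 probe sets had mean levels between the 59.6th and the 97.3rd percentile of probe sets, and no ATG8 gene lay among the dimmest 40%. The tissue label was compared with marker genes. The leaf gene RCA, the activase of Rubisco, lay at the 99.99th percentile, and other leaf markers of the list were not measured under this rule. Root markers were not uniformly low. The root hair gene EXPA7 lay at the 25.8th percentile and EXPA18 at the 39.6th, but PYK10 lay at the 90.3rd. Of 3 measured root markers, PYK10, a beta-glucosidase gene abundant in roots, was lower in treated rosettes (log2 -0.88; limma, adjusted p = 3.67e-05), and EXPA7 (log2 0.03) and EXPA18 (log2 -0.26) did not pass. The summed level of the 3 root markers was 9.04 to 9.33 on the treated arrays, against 9.89 to 10.14 on the untreated arrays, on the log2 scale. The sum was taken on the linear scale and is mostly PYK10. PYK10 alone stood at 8.85 to 9.19 on the treated and 9.80 to 10.04 on the untreated arrays, so the sum does not show a joint fall of the 3 markers. The part of root material in the ATG8 differences was not tested.

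Across 18 alternative settings and left-out arrays, the differences of ATG8H (log2 1.72 to 2.00; adjusted p at most 0.00502) and ATG8B (log2 1.44 to 1.66; adjusted p at most 0.00169) kept their direction and their call. ATG8E ranged from 0.66 to 1.05 and kept its call in 17 of the 18. ATG8D, which did not pass, passed in 4, with up to 0.35 (adjusted p = 0.00693). The order of ATG8H before ATG8B before ATG8E held in every range, since the 3 ranges do not meet.

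**Figure D4:**
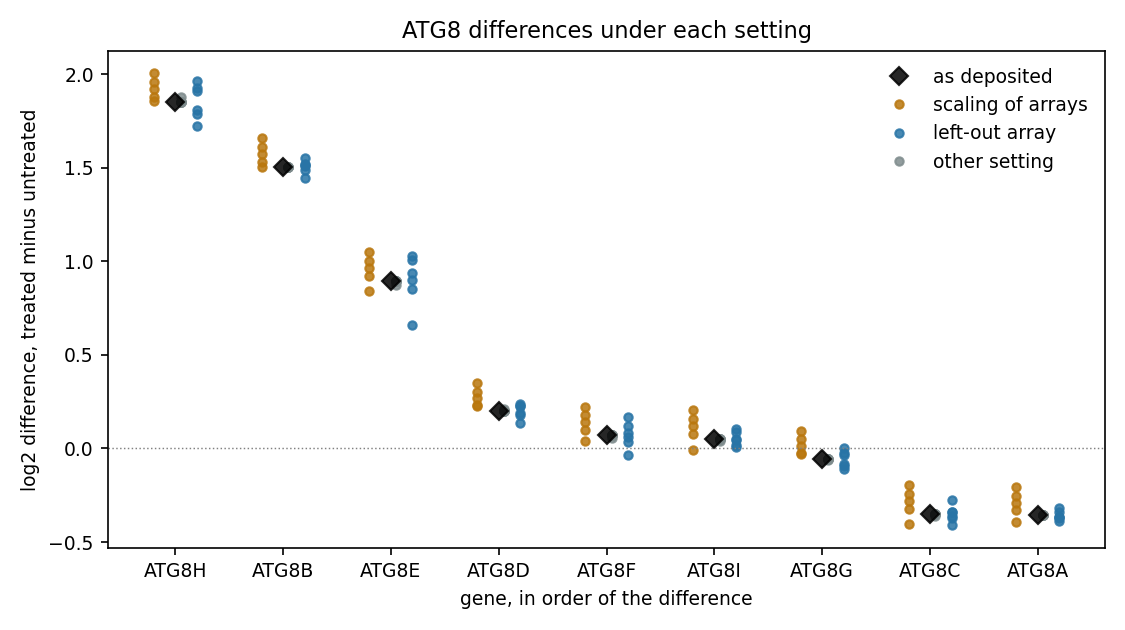
Log2 difference, treated minus untreated (y axis), of each ATG8 gene (x axis) as deposited (black diamond), with the arrays scaled in 5 other ways (orange), with 1 array left out (blue) and under other settings (grey). ATG8H stays between 1.72 and 2.00, ATG8B between 1.44 and 1.66 and ATG8E between 0.66 and 1.05, while ATG8F, ATG8I and ATG8G lie on both sides of 0.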

How the data were processed

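RNA of 6 samples was labelled by 3' in vitro transcription and hybridised to 1 array each, per the labels' protocols. The deposited log2 levels were computed by the authors with RMA; the submitters' processing notes name that method without a version, and no source used here says which arrays were normalized together. All columns belonged to the 6 samples. The table's 22810 probe sets included 64 Affymetrix controls, and the remaining 22746 entered the test without a filter on dim values. Of these, 13513 named 1 gene, 503 several and 8730 were not listed. Symbols are those of the array's platform annotation, brought up to date by Entrez ID with RefSeq gene names (assembly TAIR10.1). All 9 ATG8 probe sets have the plain suffix that Affymetrix gives to sets without shared probes. That suffix comes from the design of the array, and whether a set also binds transcripts of other ATG8 genes was not tested.

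Titles gave the groups and call the replicates biological. The test (R 4.3.3) was limma 3.58.1 with lmFit and eBayes (treated minus untreated, two-sided, no covariates), adjusted over all tested probe sets. Folds are log2 differences taken back to the linear scale. The median SE of a log2 difference was 0.09; precision is limited by the number of arrays. The ATG8H minus ATG8B test was an exact permutation test over arrays (scipy 1.17.1 in Python 3.11.15 with pandas 2.3.3), and matplotlib 3.10.9 drew the plots. Steps were tested on simulated data of this comparison with 22746 probe sets. There 58 of 67 changes of log2 0.5, 67 of 67 of 1 and 66 of 66 of 2 were recovered. The 31 false calls were a larger share of the simulated calls than the threshold of 0.05 aims at. Far fewer probe sets were changed than the 41.7% called in the data, and the noise was independent between probe sets. The simulation therefore does not give the error rate of the real calls. Alternatives were the test without the dimmest 40% of probe sets, a replicate block, equal medians, quantile normalization, anchoring on 24 poly(A) spike sets, on the 13 of them brighter than the median probe set, or on 18 hybridization control sets, other moderation, array weights, an adjusted p of 0.01, the mean of a gene's probe sets, and leaving out each array.

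The named genes are all ATG8 genes, other genes with symbol ATG plus a number, members of the 6 other autophagy lists and the 3 most similar genes per ATG8 gene. The rule named list members past the threshold, or the largest where none passed, and the list members without a call were added after their values were seen. The members and lists were chosen with earlier results of these data known. Promoter and protein sequences were not used here, and promoter motifs were not analysed.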

Additional observations from a re-analysis of the deposited data

How the results depend on the processing

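Of the 7 ATG8 genes, 3 were called higher as deposited, 2 without moderation, where ATG8E was lost, and 4 with equal medians, quantile normalization, poly(A) spikes or bright spikes, where ATG8D was added; the other settings gave 3. The 1 lower call fell to 0 with arrays anchored on the hybridization controls or on the bright poly(A) spikes, a setting chosen with the data known. Among all probe sets, 4420 higher and 5059 lower as deposited (46.6% of calls higher) became 7394 and 3323 with bright spikes (69.0% higher) and 4790 and 3185 with hybridization controls (60.1% higher). The reason the anchors differ was not tested. ATG3 (log2 -0.25) did not pass with equal medians (-0.23), poly(A) spikes (-0.18), hybridization controls (-0.15), bright spikes (-0.10), no moderation (-0.25) or at an adjusted p of 0.01 (-0.25), and ranged from -0.31 to -0.19 with 1 array left out. Of the 13 other autophagy genes, 4 higher calls became 0 without moderation and 1 at an adjusted p of 0.01, and 1 to 4 with 1 array left out. The 4 lower calls became 2 with equal medians, with poly(A) spikes, with bright spikes and at an adjusted p of 0.01, 1 with hybridization controls, and 2 to 4 with 1 array left out. The ATG8H minus ATG8B difference ranged from 0.28 to 0.45 (0.35 as deposited).

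Signs turned in values that passed in none of these settings. ATG8G turned to 0.012 with poly(A) spikes, 0.048 with hybridization controls and 0.095 with bright spikes (-0.11 to 0.0050 with 1 array left out), ATG8I to -0.010 with quantile normalization, and ATG8F to -0.037 without untreated replicate 2 (-0.037 to 0.17 with 1 array left out). With the same 3 anchors VPS38 turned to 0.032, 0.068 and 0.11 and ATG16 to 0.041, 0.077 and 0.12 (-0.054 to 0.014 with 1 array left out). No pairing of the arrays by replicate number was seen: deviations of same-numbered arrays correlated at 0.070, -0.064 and 8e-04, and 2 of 6 arrays correlated best with their own number. With 3 arrays per group this check cannot exclude a pairing. The replicate block gave 4286 higher and 4904 lower probe sets, left the ATG8 calls as they were, and ended the calls of ATG1A (adjusted p = 0.0698) and ATG1T (adjusted p = 0.0522). No detection calls were used, so signal over background is not known for dim probe sets.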
